A study of Mus musculus with 4 samples.

Results

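Dividing monocyte precursors were the barcodes that combined RNA of the CSF1 receptor with RNA of the proliferation genes Mki67 and Top2a. They were selected on the measured values: a barcode was a member if it held at least 200 genes, under 10% mitochondrially encoded unique molecular identifiers (UMIs), at least 2 UMIs of Csf1r, at least 3 of Mki67 and Top2a together, under 5 of C1qa, C1qb and C1qc together, under 5 of Arg1, and under 20 of Elane, Mpo, Prtn3 and Ctsg together. The rule gave 414 members among 33698 barcodes that passed the gene and mitochondrial limits, of 35274 in all. The cells came from the tibial fracture calluses of 20-month-old male C57BL/6J mice, collected 7 days after treatment with a microgel that contained adenosine (2 libraries) or with an empty control microgel (2 libraries). Droplet 3′ single-cell RNA libraries were made from viable cells sorted after red cell lysis. The tissue label of these callus cells is bone marrow, and the number of mice per library is not stated, so p-values measure the spread between these libraries only.

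Monocytes arise in the marrow from granulocyte-monocyte progenitors through a committed stage that still divides, carries the CSF1 receptor and Ly6C, and has lost most RNA of the primary granule proteases. Its daughters are the classical Ly6C-high monocytes, which leave the marrow through CCR2 and enter injured tissue such as a healing fracture, where they give rise to macrophages and osteoclasts. The transcription factor IRF8 favours the monocyte and dendritic cell fate over the neutrophil fate at this branch.

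The libraries held 59503381 and 68117846 UMIs in adenosine and 58453640 and 32277757 UMIs in control. Members numbered 115 and 158 in the adenosine libraries and 126 and 15 in the control libraries, with medians of 18146 and 18640 UMIs per member in adenosine and 18944 and 19898 UMIs in control. Control 2 therefore rested on 322719 UMIs from 15 cells, against 2344284 to 3174070 UMIs in the other libraries, and its summed profile correlated with them at 0.837 to 0.849 on the log2 scale of CPM (UMIs scaled to a common total per library and class), against 0.934 to 0.959 among the other three. Pairs of libraries shared 13 to 28 barcode sequences, of which 3 belonged to members and none to members of both libraries. High doublet scores were held by 14 and 26 members in adenosine and by 32 and 1 in control. RNA of another lineage, meaning Camp, Ngp and Ltf at 1% of UMIs or more or at least 10 UMIs of a lymphoid, erythroid, mast cell or platelet list, was held by 13 and 16 members in adenosine and by 22 and 3 in control. Results below are given with and without control 2 and those cells where it matters.

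The members of 3 libraries carried monocyte RNA in most cells, while those of control 2 were mixed. Csf1r, the CSF1 receptor gene, had a median of 3 UMIs per member (2 to 19), and Mki67 and Top2a together a median of 26 (3 to 91), both fixed by the rule. Ly6c2, a surface protein of classical monocytes that the rule did not use, had a median of 31 UMIs per member and was at 0 in 15 of 414. Its summed level was 1278 and 2092 CPM in the adenosine libraries, against 1414 and 892 CPM in the control libraries. Adenosine 2 was highest and control 2 lowest, and the difference did not pass the test given below. In the same order the non-dividing monocytes, which met the rule with no UMI of Mki67 or Top2a (2807 barcodes), had 629 and 1415 CPM in adenosine, against 673 and 394 CPM in control, so Ly6c2 was higher in the members in each of the 4 libraries.

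Other genes of classical monocytes were present as well. F13a1, the coagulation factor XIII subunit made by monocytes, had 1932 and 1793 CPM in the adenosine libraries, against 1797 and 1106 CPM in the control libraries. Fn1, fibronectin, had 1660.2 and 882 CPM in the adenosine libraries, against 1331 and 1057 CPM in the control libraries. Ccr2, the chemokine receptor for exit from the marrow, had 769.5 and 885 CPM in the adenosine libraries, against 751 and 660.0 CPM in the control libraries. Over the libraries, non-dividing monocytes had 852 to 1733 CPM of F13a1, lower than the members in each library. They had 700.2 to 1744 CPM of Fn1, in no constant order with the members, and 1385 to 1648 CPM of Ccr2, higher than the members in each library.

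Cell by cell, control 2 stood apart. F13a1 was detected in 103 of 115 and 147 of 158 members in adenosine, against 115 of 126 and 8 of 15 in control. Ccr2 was detected in 108 of 115 and 156 of 158 members in adenosine, against 118 of 126 and 9 of 15 in control. Ly6c2 was detected in 109 of 115 and 156 of 158 members in adenosine, against 123 of 126 and 11 of 15 in control. The median was 33 and 31 UMIs of F13a1 per member in adenosine, against 31 and 1 in control. The 3 members of control 2 with Camp, Ngp and Ltf at 1% of UMIs or more held no UMI of F13a1, Ccr2 or Irf8. In dividing pre-neutrophils, which should lack F13a1, it was detected in 10% and 7.74% of cells in adenosine, against 9.58% and 5.13% in control, at medians of 8393 and 11509 UMIs per cell in adenosine, against 9467.5 and 12651 UMIs in control. Ly6c2 was detected there in 93.5% and 95.8% of cells in adenosine, against 93.1% and 89.7% in control. Its median was 5 and 7 UMIs in adenosine, against 5 and 7 in control. The members had medians of 26 and 41 UMIs in adenosine, against 31 and 18 in control. The level of Ly6c2, and not its detection, thus set the members apart from these cells.

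RNA of earlier and later stages was low. Ms4a3, a gene of granulocyte-monocyte progenitors, was at 5.10 to 27.9 CPM in members, against 295 to 601 CPM in dividing granulocyte-monocyte progenitors (1168 dividing barcodes with at least 20 UMIs of the primary granule proteases). Kit, the stem cell factor receptor, was at 2.21 to 14.9 CPM in members and 10.7 to 65.2 CPM in the progenitors, and Myb, a factor of immature blood cells, at 15.5 to 63.1 CPM and 17.8 to 264 CPM. Of the 12 macrophage genes listed, the sum was 350.2 and 199 CPM in adenosine, against 357 and 552 CPM in control in members and 2159 and 1130.0 CPM in adenosine, against 1999 and 4558 CPM in control in non-dividing monocytes. The tissue macrophage genes Marco and Cd5l were at 0 in the members of all 4 libraries. The label of dividing monocyte precursors thus stood on F13a1, Fn1, Ccr2 and the level of Ly6c2, besides the genes of the rule, and less firmly in control 2. Those genes were not among the 10 that stood highest against the dividing granulocyte-monocyte progenitors. A monocyte precursor and progenitor list that holds F13a1, Fn1, Ly6c2, Kit and Ms4a3 summed to similar levels in both. It had 5932 and 5593 CPM in adenosine, against 5298 and 3560 CPM in control in members. The progenitors had 5273 and 4739 CPM in adenosine, against 4855 and 4726 CPM in control.

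**Figure D1:**
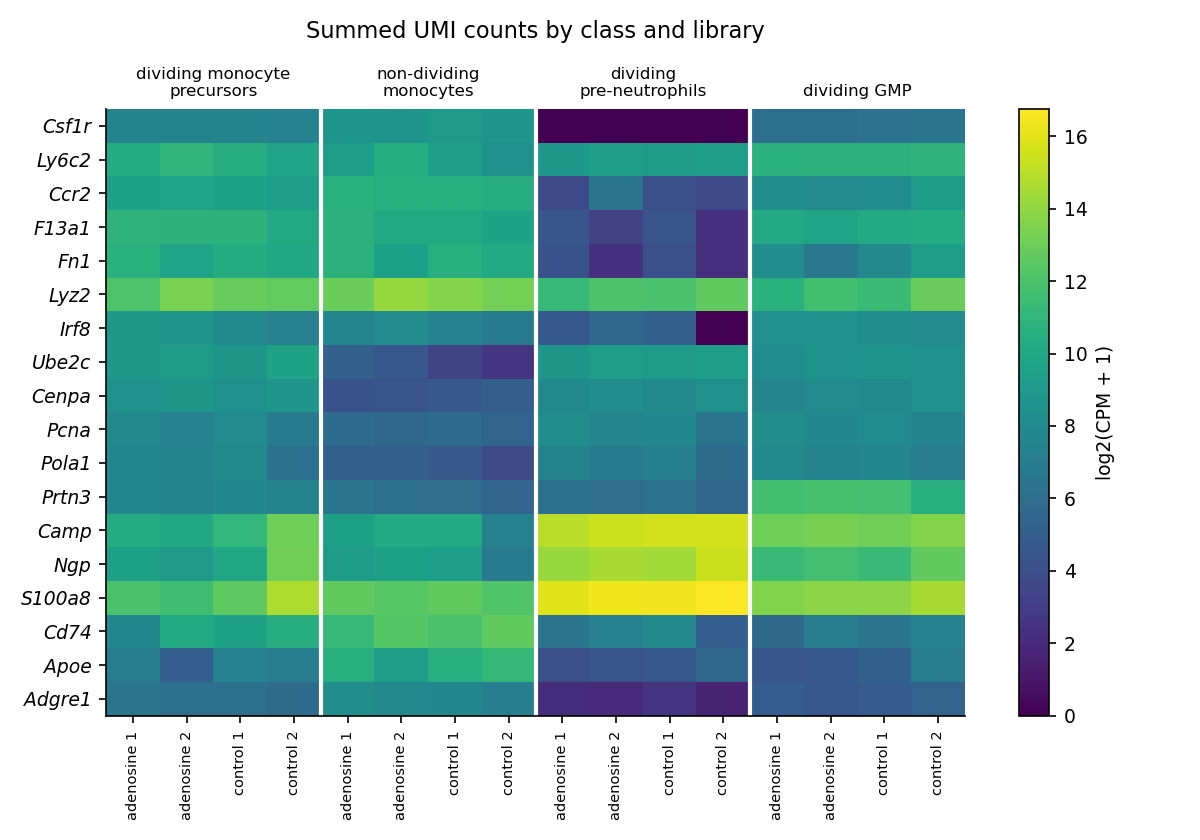
Summed UMI counts of 18 genes, as log2(CPM + 1) on the colour scale, in the members, non-dividing monocytes, dividing pre-neutrophils and dividing granulocyte-monocyte progenitors (GMP), with the 4 libraries of each class side by side. F13a1, Fn1 and Ccr2 were high in members and non-dividing monocytes, while Camp, Ngp and S100a8 were highest in the pre-neutrophils and, among the members, in control 2; Csf1r, Prtn3 and Camp were used to define classes.

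Barcodes lay close to the limits of the rule on both sides. Just inside the Csf1r limit, 156 members had 2 UMIs of Csf1r and 1587 CPM of Ly6c2, against 284 barcodes outside it with 1 UMI and 1259.6 CPM that met all other limits. Just inside the proliferation limit, 21 members had 3 UMIs of Mki67 and Top2a and 1925 CPM of Ly6c2, against 64 barcodes outside it with 2 UMIs and 1284 CPM. The C1q, Arg1 and protease limits each had at most 8 barcodes next to them on either side.

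Beyond the 2 genes of the rule, the members expressed the division programme in both of its main phases. The summed level of 30 genes of DNA replication and S phase was 2946 and 2395 CPM in the adenosine libraries, against 3153 and 1559 CPM in the control libraries. The summed level of 30 genes of G2 and mitosis was 5896 and 6757 CPM in the adenosine libraries, against 5181 and 7229 CPM in the control libraries. Non-dividing monocytes had 250.4 to 332 CPM of the first list and 75.2 to 168 CPM of the second. In the members the mitotic sum was 2.00 and 2.82 times the S-phase sum in the adenosine libraries, against 1.64 and 4.64 times in the control libraries, so the ratio of control 2 lay above and that of control 1 below both adenosine libraries. It was 1.37 and 1.94, against 1.77 and 3.40, in dividing pre-neutrophils (1451 dividing barcodes with at least 10 UMIs of Camp, Ngp and Ltf and no Csf1r), and 0.954 and 1.09, against 1.03 and 1.66, in the dividing granulocyte-monocyte progenitors. Since the members were picked for Mki67 and Top2a, and other classes with other limits, these ratios describe the cells and compare no rates of division.

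Replication genes varied most between libraries through control 2. Pcna, the sliding clamp of DNA polymerases, had 238 and 170.1 CPM in the adenosine libraries, against 273 and 118 CPM in the control libraries. Pola1, the catalytic subunit of the priming polymerase, had 225 and 181 CPM in the adenosine libraries, against 255 and 68.2 CPM in the control libraries, and Dut, which keeps uracil out of DNA, had 201 and 165 CPM in adenosine, against 231 and 77.5 CPM in control. In all 3 genes control 1 was highest and control 2 lowest. Mitotic genes were closer together: Ube2c, a ubiquitin-conjugating enzyme of the anaphase-promoting complex, had 492 and 623 CPM in the adenosine libraries, against 465 and 815 CPM in the control libraries. Cenpa, the centromeric histone, had 374 and 456 CPM in the adenosine libraries, against 333 and 446 CPM in the control libraries. Birc5, survivin of the chromosomal passenger complex, had 302 and 423 CPM in adenosine, against 318 and 471 CPM in control. More UMIs of the S-phase list than of the mitotic list were held by 27 of 115 and 32 of 158 members in adenosine, against 46 of 126 and 2 of 15 in control, or 23.5% and 20.3% against 36.5% and 13.3%.

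**Figure D2:**
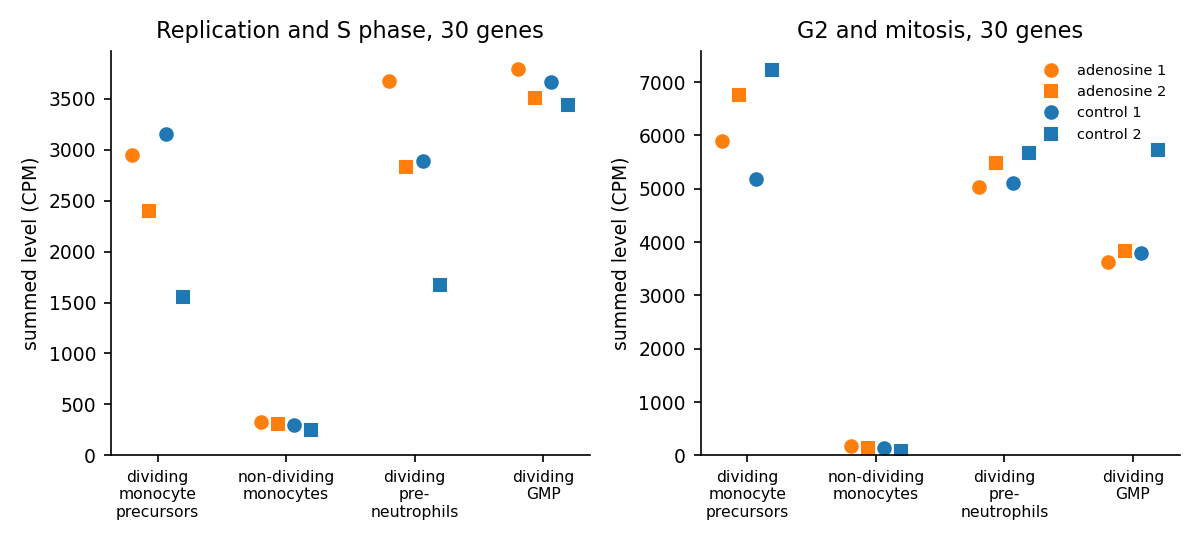
Summed CPM of 30 replication and S-phase genes (left) and 30 genes of G2 and mitosis (right) in 4 classes, one point per library, adenosine in orange and control in blue; GMP stands for granulocyte-monocyte progenitors. In the members control 2 had the lowest S-phase sum (1559 CPM) and the highest mitotic sum (7229 CPM), and the adenosine libraries lay between the control libraries in both lists.

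The promoters of these 2 groups of genes differed in the letters just upstream of their starts. TTTGAA, a core of the cell cycle homology region through which mitotic genes are repressed outside G2 and mitosis, was present on either strand of the 300-base RefSeq promoter windows (GRCm38.p6) of 20 of 26 mitotic genes and 4 of 24 replication genes, and in 17.9% of all 32817 windows. Its variant TTTAAA was found in 8 of 26 and 4 of 24 genes, and in 13.2% of windows. The E2F-type motif GGCGGGA was found in 7 of 26 and 9 of 24 genes (11.3% of windows) and TTCGCGC in 2 of 26 and 7 of 24 (1.59% of windows). The motifs were searched separately on both strands, and 1 window can hold several. The 150 bases before the start are shown for the genes with the highest levels in each list whose stretch holds a motif, with the motif in capitals as it reads on the gene's own strand.
Ube2c, chr2:164769779-164769928, plus strand: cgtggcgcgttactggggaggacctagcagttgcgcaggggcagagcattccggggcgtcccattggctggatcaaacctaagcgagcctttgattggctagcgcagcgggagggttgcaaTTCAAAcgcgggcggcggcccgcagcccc
Cenpa, chr5:30666736-30666885, plus strand: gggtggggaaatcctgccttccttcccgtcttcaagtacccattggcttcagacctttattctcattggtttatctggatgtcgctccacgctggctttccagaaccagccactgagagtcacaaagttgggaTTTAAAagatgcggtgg
Birc5, chr11:117849087-117849236, plus strand: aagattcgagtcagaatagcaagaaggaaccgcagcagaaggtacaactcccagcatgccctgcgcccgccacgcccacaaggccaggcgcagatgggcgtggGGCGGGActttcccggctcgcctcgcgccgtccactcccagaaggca
Dut, chr2:125247365-125247514, plus strand: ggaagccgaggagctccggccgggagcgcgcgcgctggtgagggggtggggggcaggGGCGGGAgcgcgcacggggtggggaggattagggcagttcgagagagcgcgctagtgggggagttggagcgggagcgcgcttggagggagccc
Ube2c carries TTTGAA as its reverse complement 29 bases before the start, Cenpa carries TTTAAA 17 bases before it, and Birc5 and Dut carry GGCGGGA 47 and 93 bases before it. The corresponding stretches of Pcna and Pola1 hold none of the motifs. A match describes letters in a window and says nothing about binding.

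Against non-dividing monocytes, 4264 genes reached 50 CPM in one of the classes, and 1374 of them were higher in the members and 1329 lower in all 4 libraries. Of these, 387 and 250 differed by more than 2-fold in the mean log2 ratio over the 4 libraries, not in each library. No test applies, since the rule split these cells. Among the 10 genes that stood highest besides Mki67 and Top2a, Nusap1, a spindle protein, had 283 to 403 CPM in members and 0.353 to 2.44 CPM in non-dividing monocytes, and Kif11, a spindle motor, 282 to 347 CPM and 1.06 to 2.47 CPM. The 10 that stood lowest were Adgre4, Apoe, Clec4n, Ciita, Cxcl10, Pla2g7, Maf, Slfn5, Sirpb1a and Cd274. Apoe, the lipid carrier of macrophages, had 139 and 31.8 CPM in adenosine, against 169 and 127 CPM in control in members and 1423 and 667 CPM in adenosine, against 1429.5 and 2325 CPM in control in non-dividing monocytes. Adgre4, an adhesion receptor of mature monocytes, had 0 to 54.9 CPM in members and 59.5 to 337 CPM in non-dividing monocytes, and Ciita, the master regulator of MHC class II, 3.10 to 30.6 CPM and 92.1 to 145 CPM. The 8 MHC class II presentation genes summed to 1063 and 3010.3 CPM in adenosine, against 2207 and 3852 CPM in control in members and 6594 and 11992 CPM in adenosine, against 9826 and 15774 CPM in control in non-dividing monocytes, so they were lower in the members of every library.

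Set against dividing pre-neutrophils, the members differed by lineage genes. F13a1 was at 1106 to 1932 CPM in members and 4.06 to 21.6 CPM in dividing pre-neutrophils, and Klf4, a factor needed for inflammatory monocytes, at 153 to 225 CPM and 0 to 3.59 CPM. Vcan, the proteoglycan versican, was at 191 to 572 CPM and 0 to 6.08 CPM. Cebpe, the factor of granule formation, was among the 10 genes that stood lowest in members. The 14 classical monocyte genes summed to 17933 and 27146 CPM in adenosine, against 20113 and 18704 CPM in control in members. In dividing granulocyte-monocyte progenitors they summed to 11367 and 14194 CPM in adenosine, against 12508 and 20603 CPM in control. Control 2 thus had the higher sum in the progenitors. Myo1e stood highest against them, at 28.2 and 14.2 CPM in adenosine, against 29.8 and 214 CPM in control in members. Cd74, the MHC class II invariant chain, was also higher in members than in the progenitors (229 to 1413 CPM and 54.4 to 174 CPM). Prss57 and Cst7, a serine protease and a protease inhibitor of young granulocytes, were lower: Prss57 was at 2.21 to 5.55 CPM in members and 10.7 to 102 CPM in the progenitors.

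The first question of the design is whether adenosine changed how many such cells the callus held. Members made up 1.30% and 1.80% of kept barcodes in the adenosine libraries (exact 95% binomial intervals 1.07 to 1.56% and 1.53 to 2.10%), against 1.34% and 0.226% in the control libraries (1.11 to 1.59% and 0.126 to 0.372%). Adenosine 1 lay below control 1, so the groups overlapped, and the low mean of the control group came from control 2. The means were 1.55 ± 0.356% in adenosine and 0.781 ± 0.785% in control (SD, n = 2 each; exact permutation test, two-sided, p = 0.667). The log2 ratio of the means was 0.99, and 0.21 without control 2. Intervals cover counting error only.

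Among Csf1r monocytes, the barcodes that met the rule at any level of Mki67 and Top2a, the dividing share was 16.2% and 17.0% in the adenosine libraries (115 of 710 and 158 of 927; 13.6 to 19.1% and 14.7 to 19.6%). In the control libraries it was 9.68% and 2.34% (126 of 1301 and 15 of 641; 8.13 to 11.4% and 1.32 to 3.83%). Both adenosine libraries lay above both control libraries, and their counting intervals did not overlap those of the control libraries. The means were 16.6 ± 0.599% in adenosine and 6.01 ± 5.19% in control (SD, n = 2 each), a ratio of 2.76 (1.47 on the log2 scale, 0.78 without control 2 and 2.83 without control 1), with p = 0.333 in the exact two-sided permutation test, the smallest that 2 against 2 libraries allow. The denominators differed as well, with 1301 Csf1r monocytes in control 1 against 641 to 927 in the other libraries. Barcodes with at least 4000 UMIs (3964 and 5136 in adenosine, 4656 and 2252 in control) were also thinned to 4000 UMIs. Barcodes below that depth were left out. The limits of the rule were applied unchanged to the thinned counts, so its upper limits were looser. The shares were then 6.84% and 7.46% in adenosine, against 2.08% and 1.16% in control. Thinning to 2000 UMIs in the same way gave 3.05% and 3.52%, against 0.877% and 0%. Both adenosine values lay above both control values at either depth. The shares at 2000 UMIs rest on few cells, 5 of 164 and 7 of 199 in adenosine, against 3 of 342 and 0 of 197 in control. Their counting intervals overlapped between the groups (0.997 to 6.97% in adenosine 1, 0.181 to 2.54% in control 1). Other dividing myeloid classes were also few in control 2: 480 and 452 pre-neutrophils in adenosine, against 480 and 39 in control, and 476 and 380 granulocyte-monocyte progenitors in adenosine, against 301 and 11 in control. How far a difference in the make-up of the calluses moved the dividing share was not tested.

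**Figure D3:**
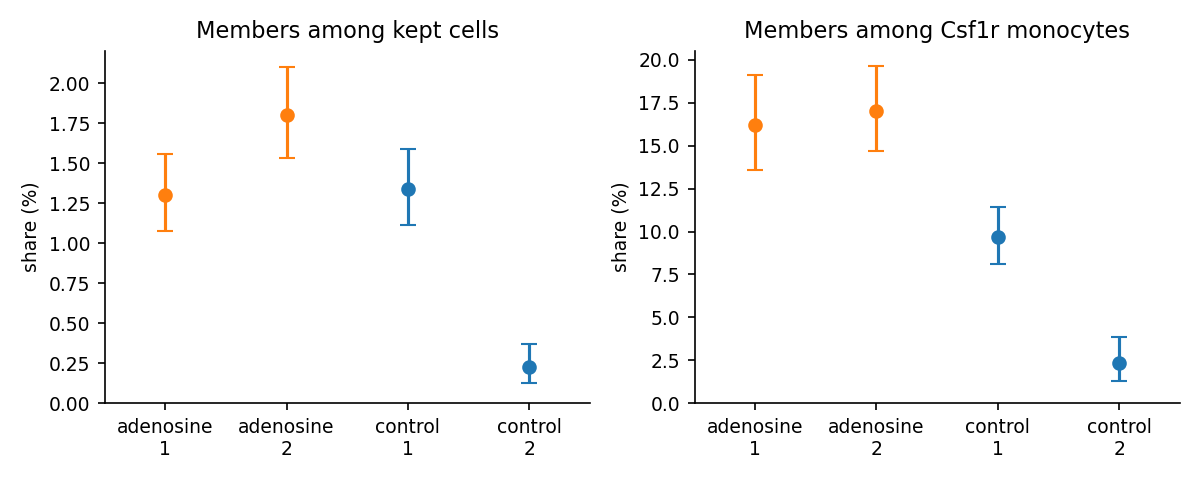
Share of members among all kept barcodes (left) and among Csf1r monocytes (right), in percent, one point per library with its exact 95% binomial interval (counting error only), adenosine in orange and control in blue. The left shares overlap between the groups (1.30% in adenosine 1, 1.34% in control 1); on the right both adenosine libraries (16.2% and 17.0%) lie above both control libraries (9.68% and 2.34%).

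The second question is whether the members' RNA differed with treatment. UMIs were summed over the members of each library, and edgeR's quasi-likelihood test was applied to the sums. Of 10323 genes tested, 0 passed an adjusted p of 0.05 (0%), and 182 had an unadjusted p under 0.05, 37 of them higher and 145 lower with adenosine among the genes outside the rule. DESeq2 called 8, all lower with adenosine: Cstdc4, Cxcl2, Fnbp1l, Hdc, Rai14, Retnlg, Slc7a11 and Stfa2l1. By edgeR, leaving out adenosine 1 gave 14 calls and leaving out control 1 gave 56, 55 of them lower with adenosine, while leaving out adenosine 2 or control 2 gave 0 each. Both adenosine libraries lay above both control libraries in 15.5% of the genes and below both in 11% of them, the background for the counts below. Counts were simulated with the same number of libraries and with the common spread of these data for every gene, and only genes above 20 CPM were changed. On them the test recovered 143 of 200 genes changed 4-fold and 2 of 200 changed 2-fold. Spread that differs from gene to gene or is larger in control 2 was not simulated, so recovery in the real data can be lower. The genes named next are the 6 of lowest unadjusted p in each direction, and none passed the adjusted threshold.

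Irf8, the transcription factor of the monocyte and dendritic cell fates, led the genes that were higher with adenosine. It had 497 and 420.3 CPM in the adenosine libraries, against 249.8 and 158 CPM in the control libraries (log2 ratio 1.09, standard error 0.28, unadjusted p = 0.00538). Both adenosine libraries lay above both control libraries, and the order was the same in non-dividing monocytes, with 192 and 264 CPM in adenosine, against 167 and 114 CPM in control. Without control 2 the log2 ratio was 0.89. Parp8, a member of the ADP-ribosyltransferase family, had 569 and 487 CPM in the adenosine libraries, against 307 and 195 CPM in the control libraries (log2 ratio 1.00, standard error 0.28, unadjusted p = 0.00834). Runx2, the transcription factor best known from osteoblasts and also present in plasmacytoid dendritic cells, had 539 and 249 CPM in the adenosine libraries, against 173 and 55.8 CPM in the control libraries (log2 ratio 1.62, standard error 0.50, unadjusted p = 0.0143).

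The other 3 genes of this group were higher in both adenosine libraries as well. Hist1h2ac, a histone H2A gene with many near-identical copies among which reads may be split, had 66.5 and 40.3 CPM in adenosine, against 23.9 and 15.5 CPM in control. Rdm1, a DNA repair protein related to RAD52, had 94.7 and 78.1 CPM in adenosine, against 48.6 and 27.9 CPM in control, and Blvrb, biliverdin reductase B of heme breakdown, 75.9 and 104 CPM in adenosine, against 40.4 and 46.5 CPM in control. Their log2 ratios were 1.27, 1.02 and 1.06. For Blvrb adenosine 1 was at 28.9 CPM without members that held RNA of another lineage, below both control libraries.

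The genes that were lower with adenosine are mostly known from neutrophils and activated myeloid cells. Retnlg, a resistin-like protein of neutrophils, had 354 and 241 CPM in the adenosine libraries, against 856 and 1258 CPM in the control libraries (log2 ratio -1.91, standard error 0.33, unadjusted p = 0.000658). Cstdc4 and Stfa2l1, stefin-type protease inhibitors of a cluster of near-identical genes, had 6.40 and 2.84 CPM in adenosine, against 51.0 and 130.1 CPM in control and 7.68 and 5.99 CPM in adenosine, against 25.9 and 86.8 CPM in control (log2 ratios -4.30 and -2.96). How reads were divided among the copies of that cluster is not given in the sources used here. Slc7a11, the cystine transporter, had 1.71 and 1.89 CPM in the adenosine libraries, against 26.7 and 164 CPM in the control libraries (log2 ratio -5.60, standard error 1.02, unadjusted p = 0.000884).

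Cxcl2, a neutrophil chemokine, had 3 and 1 UMIs in the adenosine libraries (1.28 and 0.315 CPM), against 66 and 196 UMIs in the control libraries (25.9 and 607 CPM). The groups did not overlap, and with so few UMIs in adenosine the size of the ratio is loose. In non-dividing monocytes Cxcl2 followed the same order of groups, with 26.0 and 4.06 CPM in adenosine, against 49.6 and 1471 CPM in control. All kept cells together did so too, with 87.4 and 6.18 CPM in adenosine, against 98.9 and 6677 CPM in control. Prdm1, the repressor BLIMP-1, had 5.55 and 5.36 CPM in adenosine, against 21.2 and 46.5 CPM in control. Without control 2 the log2 ratios of the 6 lower genes shrank to between -5.02 and -1.52.

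**Figure D4:**
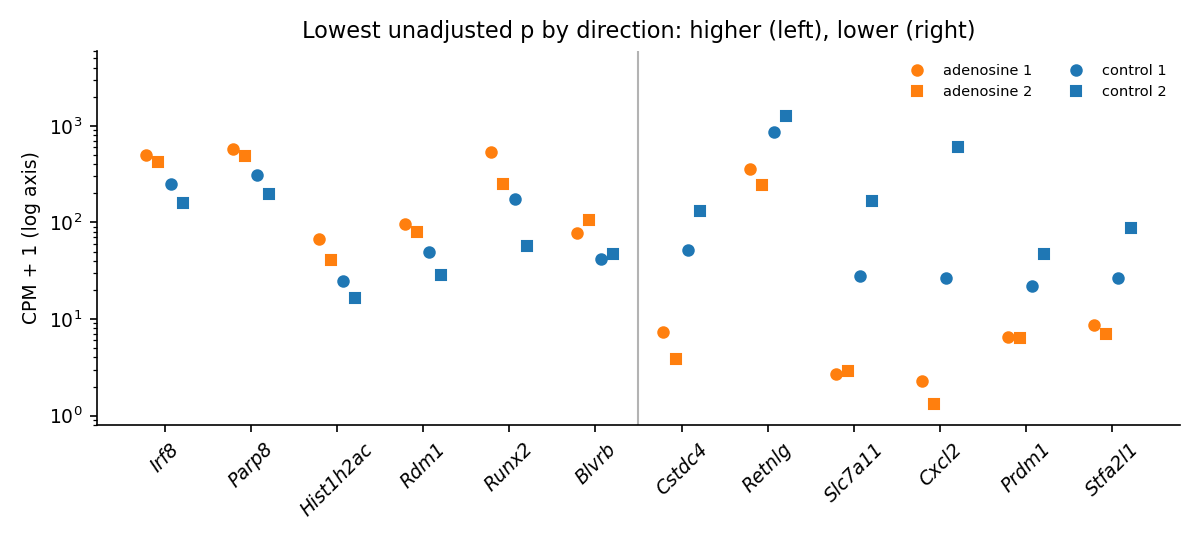
Level in the members, as CPM + 1 on a log axis, of the 6 genes with the lowest unadjusted p that were higher with adenosine (left of the line) and the 6 that were lower (right), one point per library, adenosine in orange and control in blue. The 2 adenosine libraries lie on one side of the 2 control libraries for all 12 genes, which were chosen by p, and no gene passed the adjusted threshold.

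Part of the Irf8 and Runx2 RNA lay in a small subset of the members. After these values were seen, members with at least 3 UMIs of Flt3 or of Siglech, genes of dendritic cell precursors and plasmacytoid cells, were set apart: 17 of 115 and 12 of 158 in the adenosine libraries, and 13 of 126 and 0 of 15 in the control libraries. These are 14.8% and 7.59%, against 10.3% and 0% (exact intervals 8.85 to 22.6% and 3.99 to 12.9%, against 5.61 to 17.0% and 0 to 21.8%), so their share did not separate the groups. The 42 cells held 86.0%, 59.9% and 70.0% of the members' Runx2 UMIs in adenosine 1, adenosine 2 and control 1, and 57.3%, 27.7% and 27.2% of the Irf8 UMIs. Runx2 was at 2665 and 1499 CPM in adenosine 1 and 2, against 986 CPM in control 1 in the subset, and at 91.4 and 111 CPM in adenosine, against 59.0 and 55.8 CPM in control in the rest.

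Irf8 was at 1639 and 1169 CPM in adenosine 1 and 2, against 554 CPM in control 1 in the subset, and at 257 and 338 CPM in adenosine, against 207 and 158 CPM in control in the rest. Both adenosine libraries thus stayed above both control libraries outside the subset, with log2 ratios of 0.66 for Irf8 and 0.79 for Runx2 that did not pass the test. The subset also held more Tcf4, the factor that specifies plasmacytoid cells (1316 and 1081 CPM in adenosine 1 and 2, against 784 CPM in control 1, with 73.8 to 129.6 CPM in the rest). It held less Ly6c2 (434 and 954 CPM in adenosine 1 and 2, against 595 CPM in control 1, with 892 to 2218 CPM in the rest) and less F13a1 (378 and 399 CPM in adenosine 1 and 2, against 691 CPM in control 1, with 1106 to 2258 CPM in the rest). Dntt, the terminal transferase of lymphoid-primed cells, was at 704 CPM in the subset of adenosine 1 and 44.8 CPM in that of control 1, and at 0 in that of adenosine 2. Csf1r was at 136 to 141 CPM in the subset, with 170.4 to 197 CPM in the rest. The rule holds every member at 2 UMIs or more of Csf1r. Cells of the subset also held more UMIs in all (medians 22403 and 26719 in adenosine and 22677 in control 1, with 17559.5 to 19898 in the rest). A fixed floor gives a lower CPM in deeper cells, so these Csf1r levels show no trait of the subset.

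**Figure D5:**
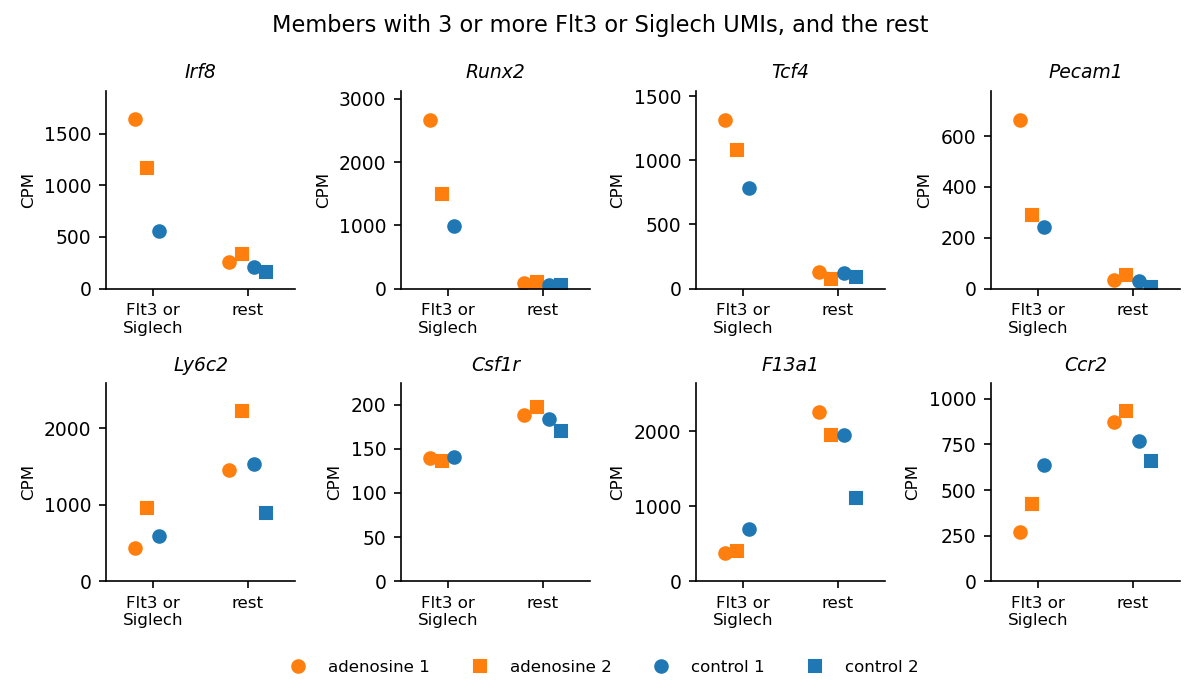
Level in CPM of 8 genes in members with at least 3 UMIs of Flt3 or Siglech and in the rest of the members, one point per library, adenosine in orange and control in blue; control 2 had no member in the subset. Irf8, Runx2, Tcf4 and Pecam1 were higher in the subset of each library that had one, and Ly6c2 and F13a1 lower. Csf1r was lower too, but the rule sets its floor in UMIs per cell and the subset's cells were deeper.

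Neutrophil RNA was highest in the members of control 2. Of 14 pre-neutrophil and neutrophil genes tested, 0 passed the adjusted threshold, 13 had a lower and 1 a higher estimate with adenosine, and 12 were below both control libraries in both adenosine libraries (background 11%), with a median log2 ratio of -2.04 against 0.00 over all genes. Their sum was 11754 and 9233 CPM in the adenosine libraries, against 17811 and 82146 CPM in the control libraries. S100a8, a calprotectin subunit, had 3965 and 2989 CPM in the adenosine libraries, against 6285 and 26726 CPM in the control libraries, and Camp, the cathelicidin of secondary granules, 1264 and 1065 CPM in the adenosine libraries, against 2130.1 and 8304 CPM in the control libraries. In non-dividing monocytes the order was not the same: the list summed to 17782 and 15540.0 CPM in adenosine, against 18413 and 11940.0 CPM in control, with control 2 lowest.

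This RNA was concentrated in few cells. Members with Camp, Ngp and Ltf at 1% of UMIs or more numbered 7 and 7 in the adenosine libraries, against 10 and 3 in the control libraries. They held 86.5% and 84.8% of the Camp UMIs in adenosine, against 88.5% and 99.8% in control, a share raised by their choice on Camp. Of S100a8, which the cut did not use, they held 53.3% and 61.7% in adenosine, against 68.0% and 96.8% in control. Without members that held RNA of another lineage, the median log2 ratio of the list was -0.01, and without control 2 it was -0.57. Camp, Ngp and Ltf are on the list and also set which members are dropped, so part of the shift to -0.01 follows from that choice. With the same members dropped, Retnlg was at 269.6 and 241 CPM in adenosine, against 721 and 101 CPM in control, where control 2 lay below both adenosine libraries. Cstdc4 was at 4.20 and 2.87 CPM in adenosine, against 62.3 and 24.3 CPM in control and Cxcl2 at 1.05 and 0.359 CPM in adenosine, against 31.2 and 93.3 CPM in control, with the groups still apart. Before any member was dropped Cstdc4 had 15 and 9 UMIs in adenosine, against 130 and 42 UMIs in control. In control 2 it fell from 130.1 to 24.3 CPM with 12 members left, so its level there rests on few UMIs. Csf1r with granule RNA in 1 barcode can be 1 cell or 2 cells in 1 droplet, and its part in the lower genes was not tested beyond these values.

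The third comparison asks whether the change with adenosine in the members differed from that in non-dividing monocytes of the same libraries. Of 11896 genes, 2 passed an adjusted p of 0.05 for that difference (0.0168%), Cstdc4 and Ebf1, both with a more negative change in the members. For Cstdc4 the difference of the log2 ratios was -3.52 (standard error 0.31, adjusted p = 0.0102, edgeR quasi-likelihood test with the library as a block). Non-dividing monocytes had 84.4 and 33.4 CPM in adenosine, against 49.3 and 153 CPM in control of it, with overlapping groups. It no longer passed without members of high doublet scores (-2.04, unadjusted p = 0.00272), with Csf1r at 3 or more (-1.08, unadjusted p = 0.076), with under 5 UMIs of Camp, Ngp and Ltf (-1.92, unadjusted p = 0.024) or without RNA of another lineage (-3.44, unadjusted p = 0.000983). With Csf1r at 3 or more the log2 ratio of Cstdc4 in the members themselves was -1.60 (unadjusted p = 0.167), against -4.30 under the rule.

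Ebf1, a transcription factor of B cell development, differed by -4.70 (standard error 0.42, adjusted p = 0.0140). It had 9.38 and 30.6 CPM in the adenosine libraries, against 388 and 0 CPM in the control libraries, and 27.2 and 38.2 CPM in adenosine, against 25.0 and 0 CPM in control in non-dividing monocytes. Control 1 alone was high in the members, and 99.6% of its Ebf1 UMIs came from 14 members with at least 10 UMIs of another lineage's list. Ebf1 is on the B cell list that helps to set this cut. A member with at least 10 UMIs of Ebf1 falls among the 14 by Ebf1 alone, so this share was largely fixed by the cut. The 8 B cell genes, Ebf1 among them, summed to 41.4 and 83.8 CPM in adenosine, against 607 and 3.10 CPM in control in the members. Without members that held RNA of another lineage Ebf1 was at 0 to 2.87 CPM, the sign of its difference turned to 1.91, and no gene passed. For Ebf1 this too follows in large part from the cut. Without control 1 its difference was -0.91. Il1b and Slc7a11 also had a more negative change in the members, by -1.99 (adjusted p = 0.0621) and -2.98 (adjusted p = 0.171), and did not pass.

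Il1b, interleukin-1 beta, had 8.96 and 11.3 CPM in adenosine, against 46.3 and 350.1 CPM in control in members and 138 and 144 CPM in adenosine, against 145 and 1246 CPM in control in non-dividing monocytes. Control 2 was highest in both classes, while control 1 stood above both adenosine libraries in the members and at their level in non-dividing monocytes. Changes that were more positive in the members belonged to Sparc, Col1a1, Cxcl9 and Dntt, none past the threshold. Sparc and Col1a1, matrix genes of mesenchymal cells, were high in the non-dividing monocytes of control 1 only (65.5 and 288 CPM) and at most 2.99 and 7.84 CPM in members. Cxcl9, an interferon-induced chemokine, was found in members of adenosine 2 alone, at 24.3 CPM.

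None of the genes by which cells sense and clear adenosine passed the test. Adora2b, the low-affinity receptor, was the receptor with the most UMIs in the members, at 25.6 and 26.8 CPM in adenosine, against 27.8 and 24.8 CPM in control (log2 ratio -0.07). Adora2a, the high-affinity receptor that raises cAMP, was at 2.13 and 2.84 CPM in adenosine, against 2.35 and 0 CPM in control, and Adora3 at 3.84 and 3.15 CPM in adenosine, against 3.53 and 6.20 CPM in control. Adora1 was at 0 in all 4 libraries. Adk, adenosine kinase, was at 143 and 76.9 CPM in adenosine, against 114 and 74.4 CPM in control, and Pnp, purine nucleoside phosphorylase, at 185 and 472 CPM in adenosine, against 229.8 and 251 CPM in control. The ectonucleotidase Entpd1 (CD39) was at 30.7 and 42.8 CPM in adenosine, against 36.1 and 115 CPM in control, while Nt5e (CD73) and Ada, adenosine deaminase, stayed at 0 to 1.96 CPM and 2.56 to 8.23 CPM. Of 12 such genes, 7 were tested, 0 passed, and the median log2 ratio was -0.07. No tested gene of the list kept both adenosine libraries on one side of both control libraries. Of 12 genes of the cAMP response, 10 were tested and 0 passed, 2 with a higher and 8 with a lower estimate.

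Growth factor and fate genes did not pass the test either. Of 20 myeloid transcription factors, 19 were tested and 0 passed, 8 with a higher and 11 with a lower estimate. Spi1 (PU.1) was at 346 and 468 CPM in adenosine, against 368 and 542 CPM in control and Runx1 at 729 and 641 CPM in adenosine, against 651 and 387 CPM in control. Klf4 was at 216 and 225 CPM in adenosine, against 153 and 167 CPM in control, with both adenosine libraries above both control libraries (log2 ratio 0.42). Of 16 genes of CSF and growth factor signalling, 13 were tested and 0 passed. Csf2ra, the GM-CSF receptor, was at 138 and 213 CPM in adenosine, against 139 and 155 CPM in control, and Csf3r, the G-CSF receptor of neutrophils, at 84.9 and 82.2 CPM in adenosine, against 119 and 179.7 CPM in control, higher in control like the neutrophil list. Of the CDK inhibitors, Cdkn2d (p19) was at 154 and 208 CPM in adenosine, against 189.8 and 273 CPM in control, Cdkn1b (p27) at 75.9 and 79.1 CPM in adenosine, against 73.3 and 74.4 CPM in control and Cdkn1a (p21) at 33.7 and 37.8 CPM in adenosine, against 34.5 and 46.5 CPM in control, and 0 of 10 tested genes of that list passed.

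Interferon-induced genes were highest in adenosine 2. The list summed to 822 and 3472 CPM in the adenosine libraries, against 1755 and 1469 CPM in the control libraries. Gbp2, a guanylate-binding protein, had 4.69 and 247 CPM in the adenosine libraries, against 11.0 and 0 CPM in the control libraries. Adenosine 2 was highest for the sum and for Gbp2. T and NK cell genes also summed highest in the members of adenosine 2 (12.4 and 247 CPM in adenosine, against 96.1 and 9.30 CPM in control). Over all kept cells that library was highest too (154 and 1718 CPM in adenosine, against 146 and 59.2 CPM in control). Leaving out adenosine 1 brought Gbp2 past the threshold, and among others the T and NK cell genes Ccl5 and Cd8b1. Of 11 interferon genes tested with all libraries 0 passed, 10 with a higher and 1 with a lower estimate with adenosine, and 1 was above both control libraries in both adenosine libraries (background 15.5%). The median log2 ratio was 0.72, 0.59 without control 2 and -0.82 without adenosine 2.

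Most inflammatory mediators had lower estimates with adenosine, and none passed the test. Of 24 inflammatory mediators, 14 were tested and 0 passed, 2 with a higher and 12 with a lower estimate (median log2 ratio -0.58, and -0.33 without control 2); 6 were below both control libraries in both adenosine libraries (background 11%). Their sum was 766 and 829.9 CPM in the adenosine libraries, against 1014 and 2711 CPM in the control libraries, again with control 2 highest, as in non-dividing monocytes (1793 and 1868 CPM in adenosine, against 2551 and 7090.0 CPM in control). H2-Ab1, an MHC class II chain, had 69.5 and 212 CPM in adenosine, against 225 and 654 CPM in control, and H2-Aa 92.6 and 367 CPM in adenosine, against 308 and 521 CPM in control, where adenosine 2 lay between the control libraries. Effector genes of monocytes were abundant in all libraries: Lyz2, lysozyme, had 4499.5 and 10475 CPM in adenosine, against 7329.5 and 6637 CPM in control, and Tyrobp, a signalling adaptor, 1265 and 1733 CPM in adenosine, against 1627 and 1719.8 CPM in control. Of 17 genes of that list 0 passed, with a median log2 ratio of -0.05.

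No gene of the housekeeping groups passed. The median log2 ratios were 0.10 for 18 ribosomal proteins, 0.03 for 17 nuclear genes of oxidative phosphorylation, -0.15 for 15 tested genes of hypoxia and glycolysis and 0.06 and 0.04 for the S-phase and mitotic lists, with 0 called in each. The dissociation and stress genes, which rise when tissue is minced, had a median of -0.04 over 12 tested genes and summed to 1196 and 1063 CPM in adenosine, against 999 and 1401 CPM in control, with overlapping groups.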

How the data were processed

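The 4 10x Chromium 3′ libraries hold single callus cells. Per the file headers and the submitters' processing notes, the authors ran bcl2fastq and Cell Ranger 7.0.0 with build mm10. Which annotation was used, and whether intronic reads were counted, is not stated in them. Deposited values are UMI counts per gene and barcode, whole numbers for 32285 genes, of barcodes with at least 500 UMIs. Members and comparison classes were set by UMI limits on the deposited counts, without clustering. Doublets were not removed; Scrublet scores (scanpy 1.11.5, Python 3.11.15) gave an alternative that drops the highest 0.8% per 1000 barcodes, since the automatic threshold marked barcodes in 1 library only (2.21%).

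Counts were summed per library and class, since cells are not replicates, and scaled to CPM by the class total. edgeR 4.0.16 (R 4.3.3; filterByExpr, TMM, quasi-likelihood, Benjamini-Hochberg over all genes, threshold 0.05) tested adenosine against control in the members, and the class-by-treatment term with the library as a block. The genes of the rule got no test. Shares carry exact (Clopper-Pearson) 95% intervals and exact permutation tests. Both fits were tested on simulated data. Named genes are the 6 of lowest unadjusted p per direction with at least 20 CPM in the higher group (4 per direction for the difference between classes), without predicted genes, immune receptor segments and rule genes; the 10 most different genes from each other class with at least 50 CPM; up to 4 most abundant genes of each of 34 gene lists; adenosine genes; and further list members chosen after their values were seen. Members, limits and lists were chosen with earlier results of these data known. Alternatives were other limits, doublet scores, DESeq2 1.42.0, library size alone, no filter, each library left out, thinned counts and a replicate block; 2 that drop members with RNA of another lineage or of Flt3 and Siglech were chosen after seeing the data. Promoters come from RefSeq (GRCm38.p6).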

Additional observations from a re-analysis of the deposited data

Results flagged for a closer look

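The change with adenosine differed between dividing monocyte precursors and non-dividing monocytes in 2 genes by the edgeR test of the difference itself. Cstdc4, a stefin-type inhibitor with near-identical neighbours, had a log2 ratio of -4.30 in the members and -0.88 in non-dividing monocytes, a difference of -3.52 (adjusted p = 0.0102). Both adenosine libraries were below both control libraries in the members, and the groups overlapped in non-dividing monocytes.

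Ebf1, a B cell factor, had a log2 ratio of -3.36 in the members and 1.36 in non-dividing monocytes, a difference of -4.70 (adjusted p = 0.0140). Of its 989 UMIs in the members of control 1, 985 lay in 14 members with at least 10 UMIs of a list of another lineage. Ebf1 is itself on 1 of those lists, so this count was largely fixed by the cut. With 2 libraries per group, no single library could be tested as an outlier.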

How the results depend on the processing

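The direction of both shares held under every setting run, with log2 ratios of adenosine over control of 0.96 to 2.08 for the share of kept barcodes and 1.41 to 2.90 for the dividing share, 0.21 to 2.78 and 0.78 to 2.83 when 1 library was left out. With 2 against 2 libraries neither could pass the exact permutation test. Adenosine 1 lay below control 1 in the share of kept barcodes also with Mki67 and Top2a at 5 or more and without Flt3 or Siglech cells, and above it under the other limits. Genes changed in the members numbered 0, but 8 with DESeq2, 186 without a filter on low counts and 4 (Aff3, Pecam1 and Runx2 higher, Il1b lower) with under 5 UMIs of Camp, Ngp and Ltf, and 0 to 56 with 1 library left out, where a lone library was assumed to vary like the others. Genes whose change differed between the classes numbered 2, but 6 with DESeq2, 111 without the filter, 7 with Csf1r at 3 or more, 9 with under 5 granule UMIs, 4 without Flt3 or Siglech cells, 0 without RNA of another lineage and 34 to 108 with 1 library left out. The causes were not tested. Of single genes, the difference for Ebf1 turned to 1.60 without high doublet scores and 1.91 without RNA of another lineage, a cut that counts Ebf1 itself. That of Col1a1 turned to -0.18 with Csf1r at 3 or more and -0.34 with under 5 granule UMIs, and that of Cxcl9 ranged from -2.38 to 8.32 with 1 library left out.

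Deviations of same-numbered libraries from their group means correlated at -0.0182. With 2 libraries per group the deviations within a group mirror each other, so this value cannot tell whether the replicate numbers pair the libraries. With the replicate block 0 genes changed in the members and 0 differed between the classes. The 15 members of control 2 limit every comparison.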

Other observations

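Among the members, hemoglobin and transferrin receptor RNA was highest in adenosine 1. The 8 erythroid genes summed to 629 and 5.67 CPM in adenosine, against 101 and 27.9 CPM in control in dividing monocyte precursors, and Tfrc, the transferrin receptor of iron-hungry cells, was at 142 and 18.6 CPM in adenosine, against 42.4 and 27.9 CPM in control. For the erythroid sum adenosine 1 was also highest over all kept cells (1611 and 72.6 CPM in adenosine, against 149.5 and 5.47 CPM in control). The high sum was thus not particular to the members. Of the 8 erythroid genes 5 were tested and 0 passed, and Tfrc did not pass.

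Chil3, a chitinase-like protein of neutrophil and monocyte precursors, had 1376 and 737 CPM in adenosine, against 540.0 and 1233 CPM in control in the members, so the groups overlapped. In non-dividing monocytes it had 1345 and 783 CPM in adenosine, against 406 and 206 CPM in control, with both adenosine libraries above both control libraries. Hist1h2ap, a replication-dependent histone gene with near-identical copies, was at 366 and 947 CPM in adenosine, against 1782 and 406 CPM in control in the members, highest in control 1, the library with the highest S-phase sum. Genes of osteoclasts, a later fate of this lineage, were sparse: Acp5, tartrate-resistant acid phosphatase, was at 5.12 and 29.9 CPM in adenosine, against 29.0 and 133 CPM in control and Atp6v0d2, a proton pump subunit for bone resorption and cell fusion, at 2.13 and 5.36 CPM in adenosine, against 14.1 and 112 CPM in control, in both with control 2 highest.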
